A study of Homo sapiens with 27 samples.

Results

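Oncostatin M (OSM) was added to cells that also received epidermal growth factor (EGF), and the response was measured 24 h later in MCF10A, an established non-tumorigenic line of human breast epithelium. The comparison used 6 of the 27 RNA-seq libraries of the series, chosen by their labels: 3 of cells given EGF and OSM (called EGF+OSM) and 3 of cells given EGF alone. Every ligand was used at 10 ng/ml, in fresh medium free of other growth factors, after 18 h in such medium. MCF10A cells had before that been grown with EGF, horse serum, hydrocortisone, cholera toxin and insulin, a history that both groups share. Beside this comparison stand cells given OSM alone and its phosphate-buffered saline control (PBS), and cells given EGF, OSM and transforming growth factor beta (EGF+OSM+TGFB) and their control without OSM (EGF+TGFB), with 3 libraries in each group. The labels number the replicates and do not say that they were separate cultures, so the p-values measure the spread between these samples, which may be technical.

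OSM is a cytokine of the interleukin-6 family. It binds a receptor made of OSMR or LIFR with the shared subunit IL6ST (gp130), which carries JAK kinases and passes the signal mainly to the transcription factor STAT3, and also to the ERK pathway. STAT3 raises its own inhibitor SOCS3, and in liver the same pathway drives the acute-phase proteins of the blood. EGF binds EGFR and acts strongly through ERK, and MCF10A cells depend on it for growth. In skin keratinocytes OSM is known to raise S100 alarmins and to lower genes of terminal differentiation.

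Library totals were 38.1 to 46.9 M (mega) counts for EGF and 36.4 to 41.9 M for EGF+OSM. A level here is a gene's count per 1 M counts (CPM), scaled between libraries by the trimmed mean of M-values. Mitochondrial transcripts took 1.76% ± 0.290 of the counts with EGF and 1.44% ± 0.141 with EGF+OSM (SD, n = 3). The 9 markers of the labelled breast epithelium were all detected, with sums of 9449.9 to 10434 CPM for EGF and 11017 to 11852 CPM for EGF+OSM. Among markers of other cells, 5 of 7 for fibroblasts, 4 of 5 for endothelium, 5 of 7 for immune cells and 4 of 7 for luminal hormone-receptor cells were under 1 CPM in all 6 libraries. PGR, TFF1, COL3A1 and AIF1 were among those at 0. The summed immune markers were at 26.2 to 29.9 CPM with EGF and at 52.1 to 58.7 CPM with EGF+OSM, nearly all of it CD14 and CD68. The summed fibroblast markers went from between 30.9 and 36.0 CPM to between 13.1 and 15.3 CPM, led by COL1A1 and DCN. What part other cells had in these sums was not tested. In bulk RNA, fewer cells of a type and less RNA per cell cannot be told apart.

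Adding OSM to EGF changed 5481 of 16611 tested rows, or 33.0%, taking as called an edgeR quasi-likelihood p under 0.05 after Benjamini-Hochberg adjustment over all rows. A row is a gene identifier, and some gene symbols have several rows. Of these rows 2760 were higher (16.6% of all tested) and 2721 were lower (16.4%). At least 2-fold changes were fewer and leaned downwards, with 444 rows higher and 866 lower. The 3 EGF+OSM libraries lay wholly above or wholly below the 3 EGF libraries in 45.6% of all rows, and the median log2 fold change over all rows was 0.02. The gene lists described next hold genes of known pathways and functions. Over the 21 lists of pathways and functions, acute-phase, hypoxia and chemokine genes had the highest medians and squamous differentiation genes the lowest.

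**Figure D1:**
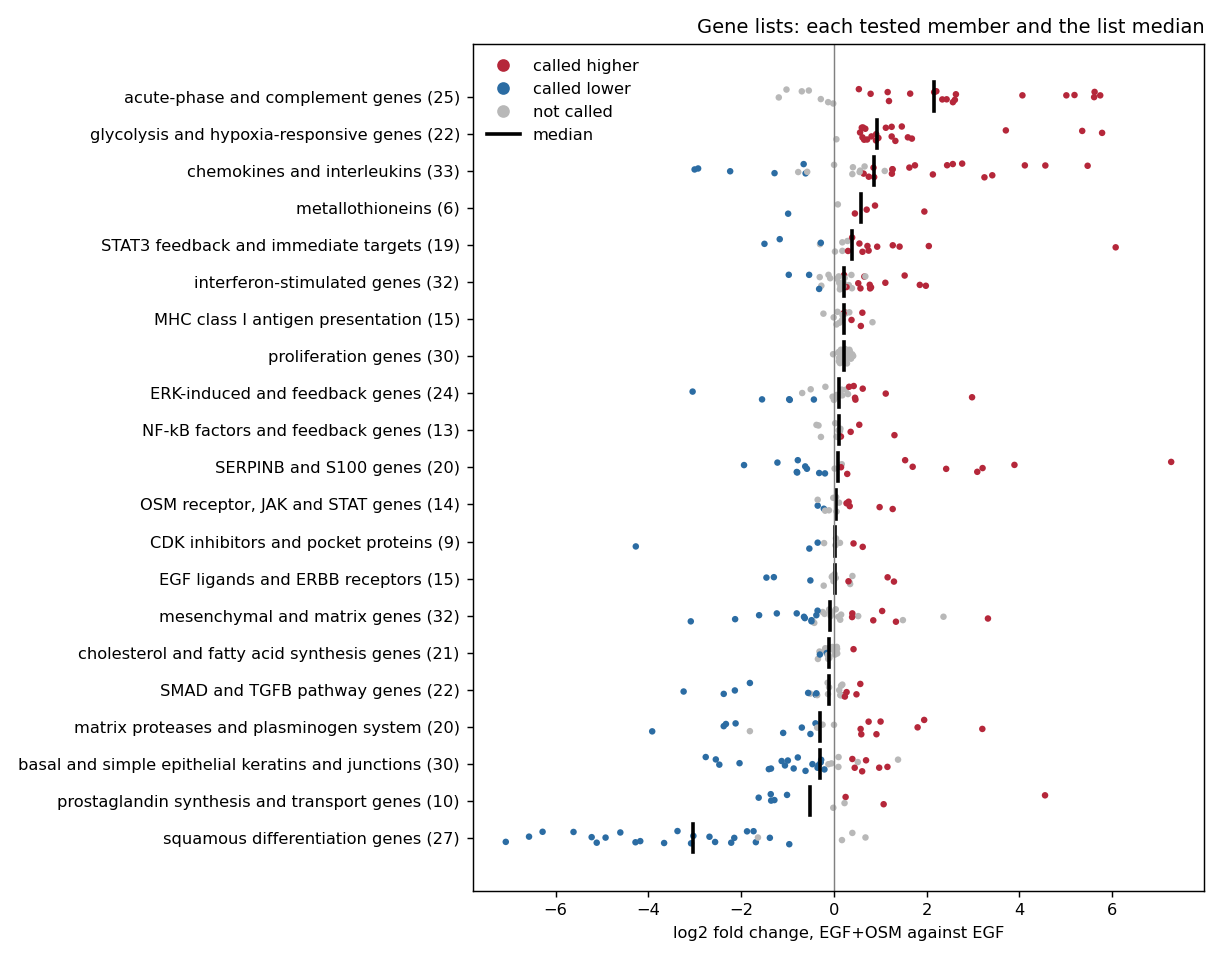
Log2 fold change of EGF+OSM against EGF (horizontal axis) for every tested member of 21 gene lists, ordered by list median, with the number of tested members in brackets. Red points were called higher, blue points lower and grey points neither, and black bars are medians, which run from 2.16 for acute-phase and complement genes to -3.03 for squamous differentiation genes.

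The receptor complex itself responded in part. OSMR, which pairs with IL6ST in an OSM receptor, was at 158, 155 and 145 CPM in the 3 EGF libraries and at 381, 384 and 336 CPM in the 3 EGF+OSM libraries. All 3 treated libraries were above all 3 controls, and the log2 fold change was 1.27 ± 0.07 (SE), with an edgeR adjusted p of 9.9e-13. IL6ST, the shared signalling subunit, rose by less, from 158 ± 4.11 to 196 ± 3.34 CPM (SD, n = 3). LIFR, the alternative partner, was at 8.47 ± 0.577 and 7.85 ± 0.766 CPM (SD, n = 3), which the test did not separate (log2 fold change -0.11 ± 0.14, SE). STAT3 was at 176, 187 and 173 CPM with EGF and at 344, 363 and 354 CPM with EGF+OSM. It rose by a log2 fold change of 0.98 ± 0.06 (SE, edgeR adjusted p 1.6e-11). JAK1, the main kinase bound to gp130, fell by 0.22 on the log2 scale. JAK2 rose by 0.34 and the interleukin-6 receptor IL6R fell by 0.35 on the log2 scale. Both of these small changes fell short of the threshold without EGF+OSM replicate 2, with edgeR adjusted p-values of 0.064 for JAK2 and 0.055 for IL6R. Of the 14 receptor, JAK and STAT genes tested, 5 rose, 2 fell and 7 did not pass. The called share was 50%, against 33.0% of all rows.

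SOCS3, the feedback inhibitor that binds gp130 and JAK kinases, showed the clearest rise of this pathway. Its levels were 1.52, 1.02 and 1.32 CPM with EGF and 85.97, 82.2 and 90.4 CPM with EGF+OSM, so that the treated libraries stood close together and far above the controls. The log2 fold change was 6.07 ± 0.16 (SE), with an edgeR adjusted p of 6.4e-18. The gene lies on chromosome 17, 78356778 to 78360077, minus strand (GENCODE, GRCh38, whole gene span). SOCS1, a relative that answers mainly to interferon, went the other way, from 0.691, 0.659 and 0.733 CPM to 0.298, 0.233 and 0.202 CPM (log2 fold change -1.50 ± 0.28, SE). SOCS2 and CISH, usual targets of STAT5, rose by 0.62 and 0.93 (log2). Of the 19 tested STAT3 feedback and immediate target genes, 11 rose and 3 fell, with a median log2 fold change of 0.39 against 0.02 for all rows. This was 73.7% called, against 33.0% of all rows. BCL3, an atypical IκB protein, rose from 15.5 ± 1.20 to 64.1 ± 4.33 CPM (SD, n = 3), and the immediate-early gene FOS rose from 17.00 ± 1.16 to 45.4 ± 1.66 CPM. HIF1A, the oxygen-regulated transcription factor, rose from 235 ± 12.2 to 566 ± 24.2 CPM. PIM1, a kinase usually listed as a STAT3 target, fell from 36.4 ± 2.85 to 16.2 ± 1.95 CPM (log2 fold change -1.17 ± 0.15, SE). MYC, JUNB, CEBPB, PIM2 and PIM3 did not pass the test.

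STAT dimers bind palindromes with TTC on the left and GAA on the right, so the promoter windows of RefSeq (GRCh38.p14) were searched for TTCNNNGAA and TTCNNGAA. Both motifs read the same on both strands. Each window runs from 250 bases before to 50 bases after the gene's start, and the upstream 250 bases are printed for the 3 genes with a match among the leading and pathway genes whose windows were looked up, with the match in capitals. SOCS3 and STAT3 are shown as genes that rose and SPRR3, a squamous gene, as a gene that fell.
SOCS3 promoter (chr17:78360926-78361175, minus strand): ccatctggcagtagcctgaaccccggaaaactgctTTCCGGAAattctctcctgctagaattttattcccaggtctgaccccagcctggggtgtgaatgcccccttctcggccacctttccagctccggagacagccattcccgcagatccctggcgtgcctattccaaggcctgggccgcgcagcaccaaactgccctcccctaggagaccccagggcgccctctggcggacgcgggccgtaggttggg
STAT3 promoter (chr17:42388443-42388692, minus strand): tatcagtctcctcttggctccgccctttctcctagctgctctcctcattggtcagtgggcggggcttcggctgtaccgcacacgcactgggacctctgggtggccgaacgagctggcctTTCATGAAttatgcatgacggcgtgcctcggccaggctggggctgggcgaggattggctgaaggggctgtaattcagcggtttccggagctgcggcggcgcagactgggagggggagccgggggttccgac
SPRR3 promoter (chr1:153001499-153001748, plus strand): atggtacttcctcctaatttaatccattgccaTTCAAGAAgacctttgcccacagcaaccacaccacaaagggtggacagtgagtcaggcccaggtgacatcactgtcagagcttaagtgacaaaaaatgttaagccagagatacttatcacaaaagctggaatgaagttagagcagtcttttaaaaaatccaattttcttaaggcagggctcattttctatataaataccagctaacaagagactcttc
The match began 215 bases before the RefSeq start in SOCS3, 131 in STAT3 and 218 in SPRR3. All 3 matches were of TTCNNGAA, and every other window looked up held neither motif. Windows were found for 7 of the 12 genes with the highest fold changes and 8 of the 12 with the lowest. TTCNNGAA was in 1 of the 7 and 1 of the 8, and TTCNNNGAA in 0 of each. Such numbers are too small to set apart from the shares of all tested genes. TTCNNNGAA was in 7.88% of all 27305 windows, in 8.73% of the 275 windows of genes called at least 2-fold higher and in 5.68% of the 563 called at least 2-fold lower. TTCNNGAA was in 7.84%, 10.2% and 6.93% of the same sets. Over the 11408 windows of all tested genes the shares were 6.30% for TTCNNNGAA and 6.25% for TTCNNGAA, below those of the 2-fold higher set. A match shows letters only, and no test was made. The RefSeq start of SOCS3 differs from the GENCODE end of the gene given above.

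Among protein-coding genes with at least 5 CPM in the higher group, the 12 highest and 12 lowest fold changes formed the leading genes of the response. The group ranges did not overlap for any of these 24 genes, which the choice of genes makes likely. All 24 had also been called in the same direction for OSM against PBS and for EGF+OSM+TGFB against EGF+TGFB, comparisons that share no library with this comparison. SERPINB4, an intracellular protease inhibitor, was at 0.959, 0.919 and 0.978 CPM with EGF and at 118, 182 and 141 CPM with EGF+OSM. This was a log2 fold change of 7.27 ± 0.31 (SE, edgeR adjusted p 2.7e-13). Its sequence is close to that of SERPINB3, which rose from 20.1 ± 2.99 to 298 ± 56.3 CPM (SD, n = 3), and how reads were shared by the pair is uncertain. STC1, a secreted glycoprotein, was at 4.32, 3.14 and 2.74 CPM and then at 200.4, 171 and 191 CPM (chromosome 8, 23841929 to 23854806, minus strand). Its log2 fold change was 5.78 ± 0.17 (SE), and the groups did not overlap.

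FGL1, a fibrinogen-like protein secreted by liver cells, had 1 count in all EGF libraries together and 979 counts in the EGF+OSM libraries. The ratio of their levels was 1114 with an exact 95% counting interval of 199 to 44037. Such intervals, here and below, pool the libraries of each group. They hold counting error only and leave out the spread between replicates. OLFM4, a secreted glycoprotein of crypt cells and neutrophils, was at 0, 0.0799 and 0.0489 CPM and at 15.8, 22.5 and 13.4 CPM. The other leading genes that rose have varied roles. IL13RA2, a decoy receptor for interleukin-13, rose from 0.136 ± 0.0777 to 6.05 ± 1.86 CPM (SD, n = 3). SLCO2A1, the prostaglandin transporter, rose from 0.749 ± 0.0708 to 17.7 ± 2.84 CPM and the lectin CLEC2B from 1.68 ± 0.199 to 44.4 ± 3.41 CPM. CA9, an acid-regulating enzyme of hypoxic cells, the alarmin S100A7A, the adaptor SAMSN1 and CASP14 also rose, with log2 fold changes of 5.35, 5.36, 4.45 and 4.32. CASP14, an epidermal caspase that takes part in cornification, thus rose while most cornification genes fell. Reads of S100A7A may be shared with its near copy S100A7.

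**Figure D2:**
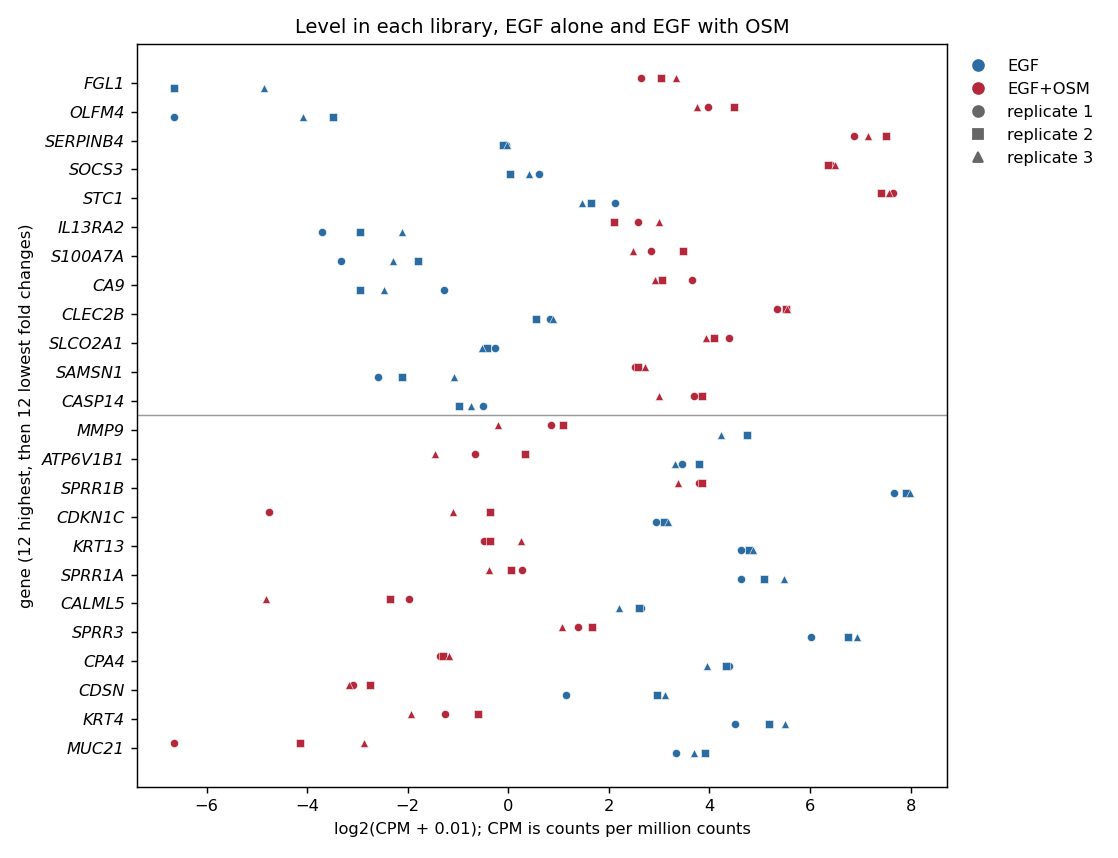
Levels of the 12 genes with the highest and the 12 with the lowest log2 fold changes in each library, as log2(CPM + 0.01), with EGF in blue and EGF+OSM in red and a symbol for each replicate. The red and blue points do not overlap for any gene, and the points farthest left, such as EGF replicates 1 and 2 for FGL1, are libraries at 0 CPM.

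The leading genes that fell were mostly of stratified squamous epithelium. KRT4 and KRT13, the keratin pair of mucosal squamous epithelium, were at 22.7, 36.6 and 45.1 CPM and 24.6, 27.6 and 29.04 CPM with EGF. With EGF+OSM they were at 0.406, 0.652 and 0.253 CPM and 0.704, 0.768 and 1.19 CPM. Their log2 fold changes were -6.28 ± 0.63 and -4.92 ± 0.34 (SE), with edgeR adjusted p-values of 1.8e-07 and 4.4e-10. SPRR3, a precursor of the cornified envelope, was at 64.7, 108 and 122 CPM and fell to 2.60, 3.14 and 2.07 CPM (chromosome 1, 153001747 to 153003856, plus strand). SPRR1A and SPRR1B fell by 5.12 and by 4.18 on the log2 scale, and reads may be shared within this gene family. EGF replicate 1 had the lowest level of the EGF libraries for KRT4, KRT13, SPRR3, SPRR1A and SPRR1B, and it was still above all EGF+OSM libraries. CDSN, the adhesive protein of corneodesmosomes, and MUC21, an epithelial mucin, have several rows each. In their most abundant rows they fell by 5.69 and by 7.68 on the log2 scale, and with their rows summed by 5.26 and by 4.77. Further among the 12, the carboxypeptidase CPA4 fell from 18.8 ± 2.98 to 0.402 ± 0.0258 CPM (SD, n = 3). The calcium-binding CALML5 fell from 5.63 ± 0.882 to 0.152 ± 0.113 CPM and the proton pump subunit ATP6V1B1 from 11.6 ± 2.05 to 0.745 ± 0.464 CPM. CDKN1C (p57) and the gelatinase MMP9 complete the 12 and are described with their groups.

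Of the 25 acute-phase and complement genes tested, 18 rose and 0 fell, where 16.6% of all rows were called higher. A further 4 were below the filter on low counts. Members at or near 0 with EGF, such as FGA, FGB, HP and C4A, had no room to fall. They passed the filter only through other groups, so the count of falls is partly set in advance. Their median log2 change was 2.16. SERPINA1, the elastase inhibitor alpha-1-antitrypsin, was at 17.1, 17.1 and 16.1 CPM with EGF and at 287, 296 and 259 CPM with EGF+OSM in the more abundant of its rows. The log2 fold change was 4.06 ± 0.09 (SE, edgeR adjusted p 1.5e-19), and 3.95 with its rows summed. SERPINA3, a related inhibitor, was at 77.9, 87.99 and 53.4 CPM and at 419, 588 and 330.1 CPM. Replicate 3 was lowest in both groups for SERPINA3, yet the groups did not overlap. LRG1, a secreted leucine-rich glycoprotein, rose from 0.799 ± 0.220 to 4.92 ± 0.779 CPM (SD, n = 3), and haptoglobin (HP) from 0.111, 0.0200 and 0 CPM to 1.41, 3.05 and 2.45 CPM. The complement proteases C1R and C1S rose by 2.16 and 2.56 (log2), factor B (CFB) by 2.21, and the inhibitors SERPING1 and CD59 by 2.34 and 0.79. The fibrinogen chains FGA and FGB had 0 counts with EGF. They were at least 6.83-fold and at least 7.58-fold higher with EGF+OSM, taking 3 counts over the EGF group as the floor, although an EGF+OSM library was also at 0 for FGA. Complement C3 was at 258 ± 35.1 and 212 ± 23.9 CPM (SD, n = 3) and lipocalin-2 (LCN2) at 16.3 ± 3.41 and 11.2 ± 4.98 CPM, and neither passed the test. SAA1 and SAA2 rose by 0.54 and 1.64 (log2), although reads of these near copies, like those of C4A and C4B, may be split between them. Summing the rows of each symbol lowered the list median to 1.65.

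The SERPINB and S100 families divided. Of 20 tested members 9 rose and 9 fell, or 90% called against 33.0% of all rows. The alarmin pair S100A8 and S100A9, which together form calprotectin, was at 74.8, 81.8 and 86.7 CPM and 182, 214 and 216 CPM with EGF. With EGF+OSM the pair was at 717, 846 and 679 CPM and 1712, 1903 and 1598 CPM. Every treated library exceeded every control, with log2 fold changes of 3.20 ± 0.18 and 3.09 ± 0.17 (SE), and adjusted p-values of 9.9e-12 and 7.7e-12 by edgeR's quasi-likelihood test. S100A12 and S100A7 rose as well, by 2.42 and 1.70 (log2). The maspin gene SERPINB5 fell from 1209 ± 39.4 to 693 ± 31.02 CPM, SERPINB2 from 26.5 ± 1.19 to 11.4 ± 2.31 CPM, and S100A14 from 924 ± 36.6 to 538 ± 29.4 CPM (SD, n = 3). S100A2, S100A4, S100A6, S100A16, S100P and SERPINB7 were the other members that fell.

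Squamous differentiation genes fell across most of their list, where 16.4% of all rows were called lower. Of 27 tested members 23 fell and 0 rose, and the median log2 fold change was -3.03. CASP14, the cornification gene that rose, is not a member of this list. The list was chosen with earlier results of these data known. Involucrin (IVL), the early envelope protein, was at 51.4, 74.1 and 66.4 CPM with EGF and at 6.20, 5.31 and 3.67 CPM with EGF+OSM (log2 fold change -3.66 ± 0.17, SE). Keratin 10 (KRT10), the suprabasal keratin of epidermis, was at 161, 254 and 222 CPM and at 19.7, 21.00 and 20.8 CPM, a log2 fold change of -3.37 ± 0.28 (SE). For both, all EGF+OSM libraries lay far below all EGF libraries. The desmosomal cadherin DSG1 went from 519 counts in the EGF group to 3 counts, a ratio of 152 with an exact 95% counting interval of 51.7 to 739.8. The cornulin gene CRNN went from 255 counts to 2, a ratio of 112 with an exact 95% counting interval of 30.7 to 930.4. KRT1, the partner of KRT10, fell from 3.02 ± 1.11 to 0.0588 ± 0.0296 CPM (SD, n = 3). The skin kallikreins KLK5, KLK6, KLK7 and KLK10, proteases that shed corneocytes, fell by 2.15, by 1.38, by 2.22 and by 2.68 on the log2 scale. The transcription factors GRHL3 and GRHL1 fell by 1.87 and by 0.96 on the log2 scale. Filaggrin (FLG) at 1.59 ± 0.0500 and 1.80 ± 0.136 CPM, transglutaminase 1 (TGM1) at 29.1 ± 3.61 and 38.3 ± 7.53 CPM, DSC1 and LCE3D were the 4 that did not pass.

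Keratins moved in both directions, and most junction genes named here fell. Among basal keratins, KRT5 and KRT14 rose, from 4064 ± 162 to 5350.3 ± 88.2 CPM and from 737 ± 23.2 to 1639 ± 32.8 CPM (SD, n = 3). TP63, the master factor of basal epithelium, rose too, from 86.7 ± 1.28 to 140.0 ± 5.05 CPM. KRT6A, a keratin of activated keratinocytes, rose from 4316 ± 217 to 8485 ± 523 CPM, with reads that may be shared with KRT6B and KRT6C. Its usual partner KRT16 fell from 394 ± 62.9 to 96.05 ± 25.2 CPM. E-cadherin (CDH1) was at 356, 396 and 322 CPM with EGF and at 185, 212 and 143 CPM with EGF+OSM, while P-cadherin (CDH3) was at 474, 499.9 and 432 CPM and at 658, 713 and 546 CPM. CDH1 fell by 0.99 and CDH3 rose by 0.45 on the log2 scale, with edgeR adjusted p-values of 2.6e-06 and 0.00112. The tight-junction genes CLDN4, OCLN, CLDN1 and CLDN7 fell by 2.77, by 1.40, by 1.13 and by 1.06 on the log2 scale. The desmosome genes DSP and JUP fell by 0.78 and by 0.87. OVOL1, a factor that restrains mesenchymal genes, fell by 2.47. Other keratins also fell, KRT15 by 2.55 and KRT17 by 0.33 on the log2 scale, so keratins did not rise as a class. In this list of 30 tested genes 6 rose and 18 fell, or 80% called against 33.0% of all rows. Replicate 3 of EGF+OSM was the lowest of its group for CDH1, CDH3, CLDN1, CLDN4 and OCLN.

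In the mesenchymal and matrix list 6 of 32 tested genes rose and 11 fell, with a median log2 fold change of -0.09. Fibronectin (FN1), a matrix glycoprotein, was at 722, 707 and 514 CPM with EGF and at 87.2, 88.5 and 52.9 CPM with EGF+OSM. The groups were far apart, although replicate 3 was lowest in each, and the log2 fold change was -3.09 ± 0.19 (SE, edgeR adjusted p 4.9e-11). COL1A1, COL7A1, TAGLN and N-cadherin (CDH2) fell by 2.13, by 1.61, by 1.23 and by 0.80 on the log2 scale. Against these, the repressor of CDH1 SNAI1 was at 0.290, 0.419 and 0.367 CPM and at 3.90, 4.24 and 2.73 CPM, a log2 fold change of 3.32 ± 0.19 (SE). Tenascin-C (TNC) rose from 151 ± 36.4 to 380.3 ± 54.8 CPM and the lysyl oxidase LOXL2 from 46.9 ± 5.77 to 96.5 ± 16.4 CPM (SD, n = 3), and ZEB1 rose by 0.85 (log2). Vimentin (VIM) was at 1013 ± 23.98 and 1128 ± 105 CPM, and the laminin genes LAMA3 and LAMB3 had log2 fold changes of 0.04 and -0.20. None of these 3 passed the test.

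Matrix proteases and the plasminogen system also split, with 8 of 20 tested genes higher and 8 lower, or 80% called against 33.0% of all rows. MMP9 was at 26.7, 26.97 and 18.8 CPM with EGF and at 1.79, 2.12 and 0.860 CPM with EGF+OSM, a log2 fold change of -3.92 ± 0.29 (SE, edgeR adjusted p 9.8e-10). The stromelysin MMP10 and the collagenase MMP1 fell as well, from 9.05 ± 1.79 to 1.76 ± 1.27 CPM and from 3.27 ± 0.592 to 0.749 ± 0.0790 CPM (SD, n = 3). The membrane-bound MMP14 rose from 305 ± 36.8 to 575 ± 58.4 CPM and the inhibitor TIMP1 from 706 ± 21.7 to 1185 ± 85.3 CPM, while TIMP2 fell from 134 ± 9.06 to 62.9 ± 7.43 CPM and TIMP3 by 0.69 on the log2 scale. MMP28 fell by 2.33 in its more abundant row and by 1.80 with its rows summed. SERPINE2 (protease nexin), the plasminogen activator PLAT and the urokinase receptor PLAUR rose by 1.80, 0.59 and 0.57 (log2), and urokinase itself (PLAU) fell by 0.51.

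Lists tied to EGF signalling had medians near that of all rows. Of 24 tested ERK-induced and feedback genes 7 rose and 5 fell, with a median log2 fold change of 0.10 and a range from -3.05 to 2.98. Of 15 EGF ligands and ERBB receptors 3 rose and 3 fell. The called shares were 50% and 40%, against 33.0% of all rows, so a median near 0 does not mean that the members were unchanged. EGFR was at 483, 542 and 542 CPM and 495, 529.6 and 511 CPM, with overlapping groups and a log2 fold change of -0.03 ± 0.05 (SE). ERBB3 and ERBB2, its relatives, fell by 1.46 and by 0.51 on the log2 scale. The ligand TGFA was at 104, 101 and 102 CPM and rose to 267, 241 and 246 CPM, a log2 fold change of 1.29 ± 0.09 (SE, edgeR adjusted p 3.9e-11), and NRG1 rose by 1.16. AREG, a further EGFR ligand, was at 280.2 ± 26.6 and 357 ± 38.9 CPM (SD, n = 3) and did not pass. Within the ERK list, EGR1 and CCND1 (cyclin D1), widely used markers of ERK output, fell from 112, 106 and 106 CPM to 56.4, 53.7 and 55.9 CPM and from 217, 225 and 241 CPM to 125, 117 and 111 CPM. LIF, an interleukin-6 family cytokine, was at 8.29, 7.07 and 6.04 CPM and at 0.894, 1.05 and 0.632 CPM, a log2 fold change of -3.05 ± 0.22 (SE). EPHA4, an ephrin receptor, fell from 2.80 ± 0.291 to 0.948 ± 0.164 CPM (SD, n = 3). The inhibitors SPRED3, SPRY1 and DUSP6 rose by 2.98, 1.12 and 0.62 (log2).

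In the SMAD and TGFB list 5 of 22 tested genes rose and 7 fell, or 54.5% called against 33.0% of all rows. INHBA, which encodes the activin A subunit, was at 15.7, 14.2 and 11.6 CPM with EGF and at 1.95, 1.61 and 0.835 CPM with EGF+OSM. Its log2 fold change was -3.24 ± 0.21 (SE, edgeR adjusted p 2.0e-11). The BMP target genes ID3, ID2 and SMAD6 fell by 2.38, by 1.81 and by 2.14 on the log2 scale, while their relative ID1 rose by 0.49. The TGFB receptors TGFBR1 and TGFBR2 had log2 fold changes of 0.11 and -0.13 and did not pass.

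None of the 30 proliferation genes was called when OSM was added to EGF (edgeR's quasi-likelihood test). DESeq2 also called 0, and 3 of the 30 had an unadjusted p under 0.05. The direction was still mostly shared: 29 of 30 fold changes were above 0, and the median log2 fold change was 0.21. In 16 of the 30 genes all EGF+OSM libraries were above all EGF libraries. Over all rows, 45.6% had groups that did not overlap, in either direction. MKI67, the standard proliferation marker, was at 479, 521 and 557 CPM with EGF and at 563, 646 and 693 CPM with EGF+OSM (log2 fold change 0.29 ± 0.21, SE, edgeR adjusted p 0.331). AURKB, a mitotic kinase, was at 42.1, 39.6 and 44.6 CPM and 56.3, 54.9 and 54.9 CPM (0.39 ± 0.17, log2 and SE). The count depended on the fit: with only the 6 libraries of the comparison in the model, 13 of the 30 were called. Among the CDK inhibitors the largest change was a fall. CDKN1C (p57) fell from 7.69, 8.57 and 9.07 CPM to 0.0271, 0.768 and 0.455 CPM in its more abundant row, by 4.27 on the log2 scale, or by 3.26 with both rows summed. CDKN1A (p21) fell from 231 ± 28.2 to 159.7 ± 19.6 CPM (SD, n = 3), whereas CDKN2D (p19) and the cyclin CCNG2 rose by 0.42 and 0.62 (log2). Of 9 tested inhibitors and pocket proteins, 2 rose and 3 fell, or 55.6% called against 33.0% of all rows. Without EGF+OSM replicate 1 or without EGF replicate 3, 3 were called.

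Glycolysis and hypoxia-responsive genes rose almost throughout: 21 of 22 rose and 0 fell, at a median of 0.93 (log2). Over all rows 16.6% were called higher. The 3 EGF+OSM libraries were above the 3 EGF libraries in the same number, 21 of 22 genes, where 45.6% of all rows had groups that did not overlap. VEGFA, the angiogenic growth factor, was at 57.3, 45.3 and 37.3 CPM with EGF and at 164, 152 and 133 CPM with EGF+OSM. EGLN3, an oxygen-sensing hydroxylase that is itself induced in hypoxia, was at 2.01, 2.14 and 1.78 CPM and at 31.9, 26.9 and 18.97 CPM. Their log2 fold changes were 1.68 ± 0.13 and 3.71 ± 0.23 (SE), with edgeR adjusted p-values of 9.7e-10 and 3.6e-11. The glycolytic enzymes rose less, with LDHA, PGK1, ALDOA and ENO1 at log2 fold changes of 0.91, 0.91, 0.60 and 0.56. The glucose transporter SLC2A1 rose from 89.00 ± 4.61 to 146 ± 10.3 CPM, the stress gene NDRG1 from 220.3 ± 11.2 to 665 ± 134 CPM and adrenomedullin (ADM) from 7.38 ± 0.516 to 20.3 ± 3.51 CPM (SD, n = 3). PFKP, a phosphofructokinase, was at 361 ± 1.03 and 375 ± 31.2 CPM and did not pass. All 22 genes of the list were called higher when OSM was added to EGF and TGFB, with a median of 1.43.

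The 32 tested interferon-stimulated genes gave 12 higher and 3 lower, at a median of 0.23 (log2). This was 46.9% called, against 33.0% of all rows. The members that rose most were IFITM3, IFITM1 and IFITM2, membrane proteins that block virus entry and also answer interleukin-6 family cytokines. IFITM3 was at 136, 149.9 and 144 CPM and at 536, 586 and 574 CPM, a log2 fold change of 1.98 ± 0.11 (SE, edgeR adjusted p 1.3e-12), with reads that may be shared among the near copies of this family. IRF9 and IRF1, transcription factors of the interferon pathway, rose by 1.11 and 0.80 (log2). The usual interferon markers ISG15, MX1 and IFIT1 had log2 fold changes of -0.27, 0.32 and -0.31 and did not pass, and IFI27 and OAS1 fell by 0.97 and by 0.54. Among 15 tested genes of MHC class I presentation 5 rose and 0 fell, or 33.3% called against 33.0% of all rows, none of them an HLA gene. ERAP1, the peptide-trimming aminopeptidase, rose from 25.2 ± 0.367 to 38.5 ± 1.21 CPM, and its relative ERAP2, the proteasome subunit PSMB10 and the light chain B2M rose by 0.58, 0.38 and 0.24 (log2). The count of 5 fell to 2 without EGF+OSM replicate 1, and to 3 without EGF+OSM replicate 3 or without EGF replicate 2 or 3. Of 13 tested NF-κB factors and feedback genes 4 rose and 0 fell, or 30.8%, close to the 33.0% of all rows. ICAM1, an adhesion receptor, was the largest of these at 1.30 ± 0.12 (log2, SE), and the subunits NFKB1 and RELA rose by 0.36 and 0.15.

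Chemokines, interleukins and their receptors responded widely, with 18 of 33 tested genes higher, 6 lower and a median log2 fold change of 0.85. The called share was 72.7%, against 33.0% of all rows. CSF3 (G-CSF), the growth factor of neutrophils, was at 17.1, 12.3 and 13.3 CPM with EGF and at 63.3, 59.5 and 64.2 CPM with EGF+OSM, a log2 fold change of 2.13 ± 0.17 (SE, edgeR adjusted p 9.3e-10). The neutrophil chemokines CXCL1, CXCL2, CXCL3 and CXCL5 rose by 0.85, 1.63, 2.44 and 2.76 (log2), whereas CXCL8 of the same class fell from 20.98, 18.4 and 14.4 CPM to 12.2, 13.8 and 9.21 CPM. Interleukin-1 genes moved in both directions. IL1A was at 46.9, 49.04 and 49.9 CPM and rose to 110.0, 112 and 128 CPM, and IL1RN, the receptor antagonist, was at 26.6, 36.8 and 41.4 CPM and fell to 3.52, 5.68 and 3.74 CPM. The signalling receptor IL1R1 and the decoy IL1R2 both rose, by 1.75 and 4.12 (log2). IL24 and IL1RL1, the interleukin-33 receptor, rose by 3.24 and 3.41. IL4R and IL13RA1, which form the type II interleukin-4 receptor, rose by 0.75 and 1.26. IL18 fell from 105 ± 3.92 to 43.1 ± 3.57 CPM and IL11 from 2.11 ± 0.398 to 0.445 ± 0.125 CPM (SD, n = 3). CCL2 had 3 counts with EGF and 71 with EGF+OSM, a ratio of 26.9 with an exact 95% counting interval of 8.85 to 134.

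Smaller lists completed the description. The called shares were 83.3% for metallothioneins, 80% for prostaglandin genes and 14.3% for cholesterol and fatty acid genes, against 33.0% of all rows. Of 6 tested metallothionein genes and regulators 4 rose, among them MT2A from 3198 ± 135 to 5906 ± 188 CPM and MT1X from 44.3 ± 3.42 to 171 ± 9.52 CPM (SD, n = 3) and MT1F by 0.71 (log2), and the zinc exporter SLC30A1 fell from 130.2 ± 2.29 to 65.7 ± 3.61 CPM. Of 10 prostaglandin genes 3 rose and 5 fell. The inducible cyclooxygenase PTGS2 rose from 4.62 ± 0.488 to 9.71 ± 0.485 CPM, while the constitutive PTGS1 fell by 1.36, the synthase PTGES by 1.35 and HPGD, which breaks prostaglandins down, by 1.28 on the log2 scale. Of 21 cholesterol and fatty acid synthesis genes 1 rose and 2 fell. The mevalonate kinase MVK fell by 0.30 and the regulator SREBF2 by 0.16 on the log2 scale. The count of 3 fell to 1 without EGF replicate 2, without EGF replicate 3 or without EGF+OSM replicate 3.

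The OSM response on EGF was then set beside the response to OSM alone. OSM against PBS changed 10129 rows, 61.0% of those tested, against 33.0% with EGF. Of the rows called with EGF, 82.8% were also called without it, and these made up 44.8% of the calls without EGF. Among the 4541 rows called in both, 4176 moved in the same direction and 365 in opposite directions. The median absolute log2 fold change over all rows was 0.21 with EGF and 0.42 without. The difference between the 2 responses was tested directly, and it passed in 6061 rows, 36.5% of those tested (edgeR's quasi-likelihood test). It was above 0 in 2423 and below 0 in 3638. Across genes the 2 sets of fold changes correlated with r = 0.606 and rho = 0.557 over 16611 rows, which are not independent replicates.

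**Figure D3:**
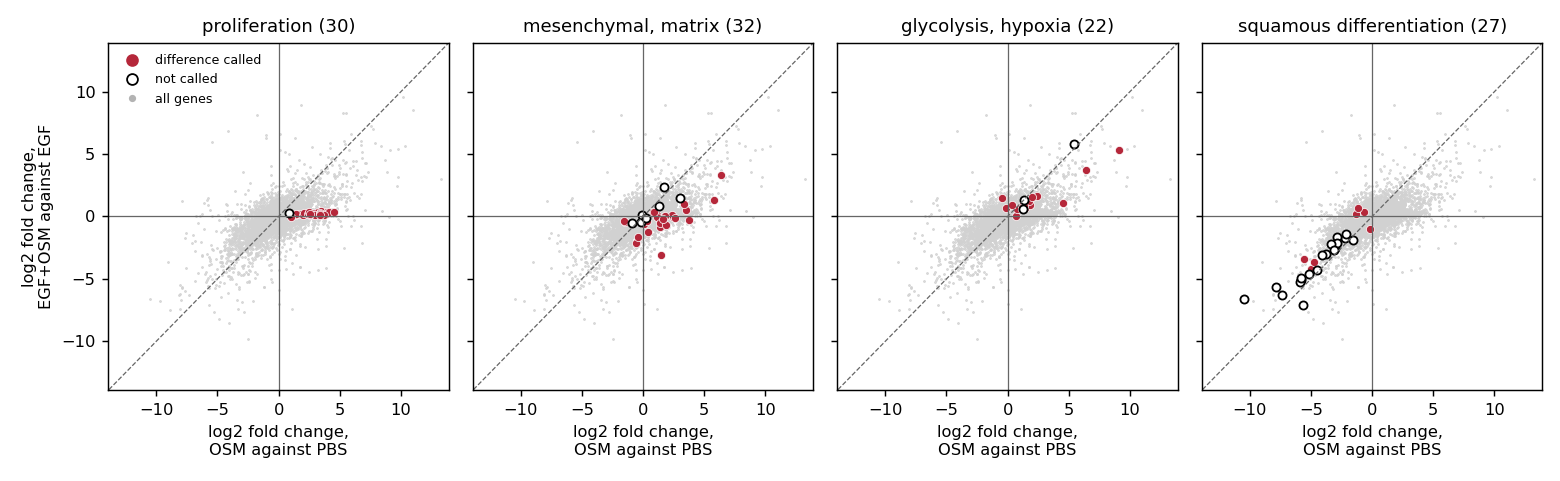
Log2 fold change of OSM against PBS (horizontal axis) and of EGF+OSM against EGF (vertical axis) for all genes (grey) and for 4 gene lists, with filled red points where the difference of the 2 effects was called and open points where it was not. Proliferation genes lie just above 0 on the vertical axis and spread to the right on the horizontal axis (medians 0.21 and 3.07), whereas squamous genes lie near the dashed line of equal effects. An open point does not show that the 2 effects are equal.

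The called differences were then counted by list, beside the 36.5% of all rows. All 30 proliferation genes were called higher for OSM against PBS, with a median log2 fold change of 3.07, against 0 of 30 and 0.21 with EGF. The difference was called, below 0, in 29 of 30. MKI67 was at 23.6, 13.6 and 27.4 CPM in the PBS libraries and at 291, 264 and 371 CPM in the OSM libraries, and so started lower than in the EGF libraries given above. The difference of its OSM effects was -3.56 ± 0.32 (log2, SE), with an edgeR adjusted p of 2.3e-08. In the mesenchymal and matrix list 20 of 32 genes were higher for OSM against PBS and 6 with EGF, and the difference was called in 25, 23 of them below 0. THBS1 went from 25.01 ± 3.53 CPM (PBS) to 346 ± 127 CPM (OSM), but from 1027 ± 23.7 to 868 ± 102 CPM when EGF was there. The squamous list had 26 of 27 members lower for OSM against PBS and a median of -3.78 against -3.03. Its difference was called in 8 of 27, and that of acute-phase genes in 8 of 25, where 36.5% of all rows were. Of the squamous differences called, 7 were above 0 and 1 was below, and all 8 of the acute-phase ones were below 0. SERPINA1 had a difference of -1.99 ± 0.12 (log2, SE, edgeR adjusted p 1.3e-11). Both lists hold genes near 0 in a group, whose differences are uncertain. Examples are CRNN at 3.90 ± 2.95 and HP at -4.73 ± 2.21 (log2, SE), although the SE of such genes is itself only approximate. A difference that was not called does not show that the 2 effects are equal. For glycolysis and hypoxia genes 19 of 22 differences were called, 16 below 0 and 3 above.

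Some genes answered OSM in opposite directions with and without EGF. Of the 447 different list genes tested, 234 were called in both comparisons and 24 of those were opposite, where over all rows 365 of 4541 were. A set of 17 rose without EGF and fell with it, and 7 did the reverse. FN1 was at 144, 111 and 141 CPM in PBS and 420.1, 344 and 304 CPM in OSM, a rise of 1.43 ± 0.18 (log2, SE), where with EGF it fell by 3.09. The difference was -4.52 ± 0.26 (log2, SE, edgeR adjusted p 2.9e-11). OSM alone brought FN1 to between its PBS and EGF levels, and its EGF+OSM libraries lay below all others of the 4 groups. EGR1, CDH2, CCN1, CCN2, IL11, PMEPA1, PTGER4, KRT17, S100A2 and CXCL8 also rose without EGF and fell with it. For PMEPA1 the EGF and EGF+OSM libraries overlapped. EGR1 was at 27.99, 27.5 and 33.1 CPM in PBS and 111, 83.7 and 116 CPM in OSM. Its OSM libraries overlapped the EGF libraries given above, and its EGF+OSM libraries lay between those of PBS and those of OSM and EGF. KANK4, a cytoskeletal adaptor, was at 7.12, 6.37 and 8.61 CPM in PBS and 39.4, 35.5 and 26.1 CPM in OSM, but at 11.01, 10.7 and 9.92 CPM in EGF and 2.47, 2.21 and 1.11 CPM in EGF+OSM. CGB5, a chorionic gonadotropin gene with near copies, had 34 counts with EGF and 1 with EGF+OSM, a ratio of 29.9 with an exact 95% counting interval of 5.01 to 1215. The collagenase MMP1 was at 0 in the PBS libraries, 0.284, 0.310 and 0.432 CPM in OSM, 3.81, 2.64 and 3.35 CPM in EGF and 0.840, 0.698 and 0.708 CPM in EGF+OSM, and no fold is given against PBS. In the other direction, KDR, SLC2A1, ADM, IL1B, IFIT2, NFKBIZ and JAK2 fell without EGF and rose with it. Some of these calls were near the threshold. The edgeR adjusted p was 0.0419 for SLC2A1 without EGF, and 0.0411 for IL1B and 0.0399 for IFIT2 with EGF. With EGF, NFKBIZ and JAK2 lost their calls under at least 1 alternative. SLC2A1 was at 238 ± 14.2 CPM in PBS and 215 ± 9.77 CPM in OSM, and both were above its EGF+OSM level.

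**Figure D4:**
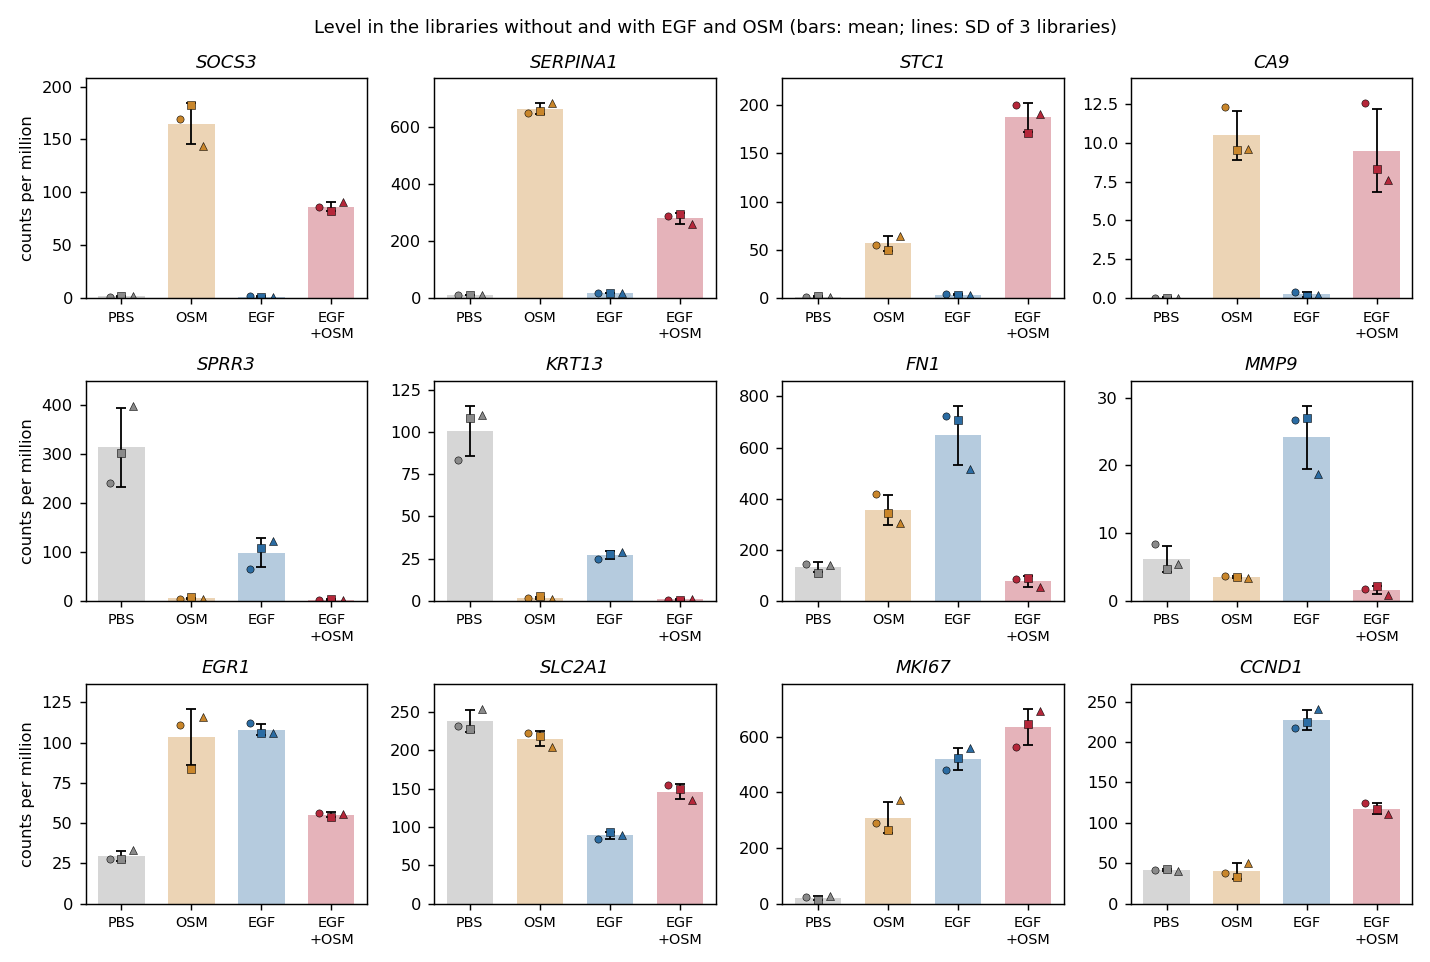
Levels of 12 genes in CPM in the PBS, OSM, EGF and EGF+OSM groups, with bars for means, lines for SD and points for the 3 libraries of each group. SOCS3, SERPINA1 and STC1 are high wherever OSM was given, SPRR3 and KRT13 are low there, and FN1 is raised by OSM alone but is lowest, at a mean of 76.2 CPM, when OSM joins EGF.

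The largest called differences between the OSM effects with and without EGF included those of KDR, MMP7, MAP7D2, COL6A3 and TNFRSF6B. KDR (VEGFR2), a receptor best known from endothelium, was at 28.6, 31.2 and 30.7 CPM in PBS and fell to 1.76, 1.53 and 1.27 CPM with OSM. With EGF it was at 0.736, 0.999 and 0.880 CPM and rose to 1.79, 1.91 and 1.67 CPM, so that the difference was 5.34 ± 0.23 (log2, SE). MMP7, SEMA6D, MAP7D2 and BEST2 followed the PBS part of this pattern, with means of 39.3, 19.6, 12.4 and 22.2 CPM in PBS and under 2 CPM in the OSM, EGF and EGF+OSM groups. COL6A3, a collagen chain, was at 0.674, 0.452 and 0.587 CPM in PBS and 34.4, 24.4 and 45.1 CPM in OSM. It was at 49.5, 44.4 and 49.8 CPM in EGF and 33.1, 26.4 and 26.5 CPM in EGF+OSM, where it fell by 0.74 on the log2 scale. TNFRSF6B, the soluble decoy receptor of FAS ligand, was at 0 in the PBS libraries and at 29.5, 24.5 and 37.7 CPM in OSM. With EGF it went from 10.5, 7.47 and 7.11 CPM to 78.1, 67.2 and 59.3 CPM. MMP3 and SCG5 were likewise near 0 in PBS, with OSM means of 9.28 and 3.78 CPM. Among the genes that rose most, STC1 and SERPINB4 gave no called difference, whereas SLCO2A1 rose more with EGF (difference 2.89 ± 0.29, log2 and SE) and CASP14 rose less (-2.85 ± 0.52). CA9 was at 0, 0.0215 and 0.0245 CPM in PBS, near 0, and its OSM and EGF+OSM libraries overlapped, at 10.5 ± 1.60 and 9.49 ± 2.69 CPM (SD, n = 3).

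The response on EGF was also set beside that on EGF and TGFB. EGF+OSM+TGFB against EGF+TGFB changed 4114 rows, 24.8% of those tested. A total of 2608 rows were called in both comparisons, 47.6% of the calls on EGF and 63.4% of those on EGF and TGFB, and 2512 of them moved in the same direction. All 3 comparisons of OSM called 2276 rows, of which 1065 were higher in each and 959 lower in each. The direct test of the difference passed in 1452 rows, 8.74% of those tested (edgeR's quasi-likelihood test). SOCS3 was among the largest. It was at 6.38, 7.32 and 5.35 CPM with EGF and TGFB, above its level with EGF alone, and at 73.2, 82.7 and 85.1 CPM when OSM was added, so that its rise was 3.64 ± 0.13 (log2, SE) and the difference 2.43 ± 0.21. ADAMTS1, a secreted metalloprotease, rose from 2.47, 2.46 and 2.44 CPM to 9.27, 8.59 and 10.6 CPM on EGF. On EGF and TGFB it fell from 5.94, 5.84 and 6.38 CPM to 2.10, 2.13 and 2.32 CPM, a difference of 3.41 ± 0.32 (log2, SE) with an edgeR adjusted p of 2.9e-07. Follistatin (FST), the binding protein of activin, was at 8.42 ± 0.204 and 8.55 ± 1.36 CPM on EGF but fell from 9.66 ± 2.13 to 1.90 ± 0.662 CPM on EGF and TGFB (SD, n = 3). The chemokine receptor CXCR1 and the peptide receptor CALCRL rose more on EGF alone, with differences of 2.56 ± 0.35 and 2.81 ± 0.40 (log2, SE). GDPD3, a lysophospholipase, fell by 3.60 on EGF and by 0.78 on EGF and TGFB (log2), and the transcription factor MAF was at 0.917 ± 0.316 and 0.565 ± 0.197 CPM on EGF and rose from 1.19 ± 0.255 to 5.05 ± 1.93 CPM on EGF and TGFB. TMEM265 had 394 counts in the EGF group and 0 in the EGF+OSM group, at least 115-fold lower with 3 counts over the group as the floor. It was at 20.4, 22.4 and 15.3 CPM with EGF and TGFB and at 18.01, 20.5 and 19.9 CPM with OSM added to them.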

How the data were processed

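RNA-seq was run on polyA libraries of MCF10A cells. The authors deposited estimated counts per gene identifier, made with kallisto 0.46.2 after Trim Galore 0.4.3 and cutadapt 1.10, per the submitters' processing notes, which also name GRCh38.p5. The deposited values were whole numbers. Rows without a symbol held 0.324% of the counts. Estimated counts divide reads among similar transcripts, so values of near copies are uncertain.

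From these counts, edgeR 4.0.16 (R 4.3.3) was run with its expression filter, TMM scaling and a robust quasi-likelihood fit over all 27 libraries in 9 groups, with 18 residual degrees of freedom. Adjusted p-values (Benjamini-Hochberg) cover the 16611 rows tested, and a call is an adjusted p under 0.05. The biological coefficient of variation was 10.1%. Differences of OSM effects were contrasts in the same fit. Each SE was the absolute log2 fold change divided by the square root of the F statistic of its test. It is thus approximate, above all for genes near 0 in a group. Where a symbol has several rows, the row with the highest mean count is reported. Scripts were tested on simulated data. Replicates differed beyond counting noise. DESeq2 1.42.0 and other scalings, filters and sample sets were alternatives. Gene coordinates are from GENCODE 44.

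The members and the 26 gene lists were chosen with earlier results of these data known. Genes were named by rule: the 12 highest and 12 lowest fold changes among called protein-coding genes with at least 5 CPM, in each list the 4 called members with the largest changes, 8 receptor and pathway genes, the 5 largest called differences of OSM effects on each side, and the 5 strongest genes called in opposite directions with and without EGF. Some genes that the rule or the lists hold are not reported here by name. Other list members were named after their values were seen. Of the 497 list entries, 34 fell below the filter and 1 was not found by its symbol. Replicates were treated as unpaired, since the labels give no pairing and the correlations of same-numbered deviations, 0.0154, 0.0490 and 0.0525, were under the 0.1 required.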

Additional observations from a re-analysis of the deposited data

Results flagged for a closer look

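OSM effects that differed between backgrounds were tested directly, as differences of log2 fold changes with edgeR's quasi-likelihood test. The effect with EGF differed from that without EGF in 6061 rows. Among the genes with counts in all 4 groups, the OSM effect was higher with EGF for MAP7D2 by 6.42, KDR by 5.34, BEST2 by 4.94, MMP7 by 4.64, SLC4A4 by 4.64 and SEMA6D by 3.97 (log2). It was lower with EGF for SCG5 (-7.55), COL6A3 (-6.66), MMP10 (-6.22) and KANK4 (-4.65). MMP10 was at 0.125, 0.0215 and 0.0489 CPM in PBS, and SCG5 was also near 0 there, so the sizes of these 2 differences are uncertain. The differences of MAP7D2, BEST2, MMP7 and SEMA6D also rest on low levels, in the OSM, EGF and EGF+OSM groups.

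The OSM effect on EGF differed from that on EGF and TGFB in 1452 rows. It was higher without TGFB for ADAMTS1 by 3.41, CALCRL by 2.81, CXCR1 by 2.56, SOCS3 by 2.43 and FST by 2.38 (log2). It was lower without TGFB for MUC21 (-4.37), GDPD3 (-2.83), MAF (-2.77) and CXCR5 (-2.73). The MUC21 difference was -1.54 with its rows summed, with an edgeR adjusted p of 0.176.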

How the results depend on the processing

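The 5481 rows called became 5368 with DESeq2's size factors in edgeR, 5478 with upper-quartile scaling, 4821 with no filter, 5504 with DESeq2, 5430 with rows of a symbol summed, 5081 with only the 6 libraries and 4238 to 5059 when each replicate was left out. Against a limit of 2-fold, the counts of at least that size were 1310 in all, 444 higher and 866 lower, with 3282 for OSM against PBS, 934 on EGF and TGFB, 1639 for the difference from OSM alone and 333 for the difference from EGF and TGFB. The last difference gave 914 to 1584 calls when a replicate was left out, with 914 without EGF+OSM replicate 3 and 927 without EGF+OSM+TGFB replicate 2. The difference from OSM alone gave 5421 to 5976. With the replicate number as a block the calls were 6304, 6760 and 2411 for the response on EGF and the 2 differences. Each sample correlated best with its own number, a hint from the data and not from the design. Of 1545 values of named genes under alternatives for EGF+OSM against EGF, 1505 kept their side of the threshold, 40 fell short and 0 changed direction. Of 474 values of differences, 440 kept it, 34 fell short and 0 changed direction. Calls lost under at least 1 alternative were those of RELA, CDKN2D, ERAP2, MVK, SREBF2, NFKBIZ, PSMB10, SCG5, BEST2, IL6R and JAK2 for EGF+OSM against EGF, of TMEM265 for the difference from OSM alone, and of MUC21 and CXCR5 for the difference from EGF and TGFB. Their causes were not tested. Depth limits genes near 0 in a group, such as FGA and FGB with EGF.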

Other observations

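The cells were sampled once, at 24 h, from a single line, so early and late responses cannot be told apart. Kallisto divides reads among near copies, which touches SERPINB3 and SERPINB4, S100A7 and S100A7A, SAA1 and SAA2, C4A and C4B, KRT6A to KRT6C, IFITM1 to IFITM3, the MT1, SPRR and HLA genes. RNA levels were measured, and protein levels and phosphorylation were not.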
